A study of Mus musculus with 4 samples.

Results

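The 10 genes described here are markers of border-associated macrophages, and they were followed in CD45+ cells sorted from the dura mater, the outermost layer of the meninges. The rule that chose them used their names and no values, although earlier results of these data were known, and took genes known from macrophages at the borders of the brain: *Mrc1*, *Lyve1*, *Cd163*, *Folr2*, *Pf4*, *Cbr2*, *F13a1*, *Clec10a*, *Csf1r*, and *Ms4a7*. All 10, of 55401 genes in the deposited table, passed the filter on low counts that left 19806 genes for testing. The mice were WT males of the C57BL/6J strain that had been given 2 μl of an AAV9 vector into the cisterna magna at 4 wk of age. One group received AAV-mVEGF-C, which encodes full-length mouse VEGF-C, and the other AAV-CTRL, which encodes a soluble VEGFR-3 fragment fused to an immunoglobulin tail and made so that it cannot bind VEGF-C. Each group had 2 libraries, numbered 1 and 2 by experiment, and each library was a pool of cells from 10 to 12 mice, so that differences between single mice were not measured. Both groups carried a vector that makes a secreted protein, and mice without a vector were not analysed here.

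Border-associated macrophages live in the meninges, the choroid plexus, and the spaces around brain vessels, and they are distinct from microglia, which live inside the brain tissue. They take up material from CSF and blood with scavenger and lectin receptors, and their survival depends on signals through the receptor CSF1R. In the dura, one subset of these macrophages carries LYVE1 and CD206, and another carries more MHC class II. CD45 is on all leukocytes, so the libraries also held neutrophils, monocytes, B cells, T cells, and other cells, and a lower level of a macrophage gene in such bulk RNA can come from fewer macrophages or from less of that RNA per cell, which cannot be told apart.

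The libraries held 32520649 to 46409685 reads assigned to genes, and each of the 10 markers had at least 138 reads in every library. AAV-CTRL 1 had the fewest detected genes, 20990, against 29221 to 37512 in the other libraries. *Ptprc*, the gene of the sort marker CD45, was at 191 to 215 TPM (a level corrected for gene length, whose sum is the same in each library) in all libraries. The neutrophil list stood apart in AAV-CTRL 1, with a summed level of 34513 TPM against 16524 to 22050 TPM in the other libraries.

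In the comparison of AAV-mVEGF-C with AAV-CTRL, which asks whether raised VEGF-C changed the dural macrophage signature, every one of the 10 markers had a fitted level below that of AAV-CTRL, and none of these differences passed the test. The differences ran from a log2 fold change of -0.44 for *Folr2* to -0.16 for *Lyve1*, with a median of -0.28, while the median over all tested genes was 0.00. Of all tested genes, 49.6% had a fold change below 0. The 10 markers were measured in the same pools, so their shared direction does not count as 10 separate observations. The SD between replicates of the markers' median log2 CPM was 0.335. By edgeR's quasi-likelihood test, 0 of the 10 had a Benjamini-Hochberg adjusted p under 0.05 (0% of all tested genes), and 0 had an unadjusted p under 0.05 (2.64% of all tested genes). DESeq2 also called 0 of the 10, although it called 0.389% of all genes. Without AAV-CTRL 2, 4 of the 10 markers were lower after AAV-mVEGF-C and their median was 0.03, against 0.13 for all genes, a median that 8 of the 10 stayed below. Without AAV-mVEGF-C 1 the median of the markers was -0.06, against -0.02 for all genes, and again 8 of the 10 were below the latter. It was -0.57 without AAV-CTRL 1 and -0.46 without AAV-mVEGF-C 2, against 0.00 and 0.04 for all genes, with all 10 lower in both.

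The core promoter windows of *Mrc1*, *Pf4*, and *F13a1* are shown because these are 3 abundant markers whose windows hold the core GAGGAA bound by PU.1 (encoded by *Spi1*), the transcription factor that specifies the myeloid lineage. The sequences are from RefSeq on GRCm38.p6, read 5′ to 3′ on the strand of the gene and ending before the start site, with each match to GAGGAA, on either strand, in capitals. On the opposite strand the core reads TTCCTC. The window of *Mrc1* (plus strand) is chr2:14229164-14229391 and has 3 matches.
Mrc1: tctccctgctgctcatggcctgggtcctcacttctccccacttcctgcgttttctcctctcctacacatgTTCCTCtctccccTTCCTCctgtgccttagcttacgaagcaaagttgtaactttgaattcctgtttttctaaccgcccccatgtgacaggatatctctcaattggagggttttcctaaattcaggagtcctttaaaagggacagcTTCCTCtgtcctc
The window of *Pf4* (plus strand) is chr5:90772185-90772434 and has 1 match, next to the start site.
Pf4: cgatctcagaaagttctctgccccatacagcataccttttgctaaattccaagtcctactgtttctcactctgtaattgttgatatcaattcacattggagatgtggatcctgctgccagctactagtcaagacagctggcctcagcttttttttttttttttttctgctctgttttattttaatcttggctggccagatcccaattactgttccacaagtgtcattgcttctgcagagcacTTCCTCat
The window of *F13a1* (minus strand) is chr13:37050245-37050494 and has 1 match.
F13a1: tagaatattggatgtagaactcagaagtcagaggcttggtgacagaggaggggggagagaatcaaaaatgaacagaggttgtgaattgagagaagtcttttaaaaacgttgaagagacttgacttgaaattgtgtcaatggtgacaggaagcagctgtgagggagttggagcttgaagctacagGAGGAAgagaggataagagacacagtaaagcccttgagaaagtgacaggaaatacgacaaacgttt

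Of the 10 markers, 7 had a promoter in the reference table, and *Lyve1*, *Clec10a*, and *Csf1r* did not. Windows of 250 bases before the start site were searched on both strands. *Folr2*, *F13a1*, and *Ms4a7* each had a window at 2 start sites, and the second window of *F13a1* had no match to GAGGAA. In at least 1 window, GAGGAA was found for 4 of the 7 markers. The fourth was *Cbr2*, whose match lies inside the longer GENCODE transcript and is not printed. The same core was in 23.3% of all 32851 promoters of that length, a share counted per window and not per gene. TGCTGA, part of the element bound by the MAF family factors of tissue macrophages, was found for *Folr2* and for none of the other 6, and was in 16.1% of all promoters. A match of this length is a description of the letters and not evidence of binding. Gene extents given below (GRCm38) come from GENCODE M21, which annotates each marker as protein coding.

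Per length, the order of the markers over the 4 libraries ran from *Csf1r* at 166 ± 48.6 TPM (SD, n = 4) through *F13a1* at 88.8 ± 12.5 TPM, *Mrc1* at 69.6 ± 21.5 TPM, *Pf4* at 56.8 ± 23.3 TPM, *Clec10a* at 40.4 ± 7.62 TPM, and *Cbr2* at 32.0 ± 14.1 TPM. It continued with *Ms4a7* at 16.6 ± 5.37 TPM and *Cd163* at 13.8 ± 4.09 TPM and ended with *Folr2* at 4.80 ± 2.43 TPM and *Lyve1* at 1.43 ± 0.466 TPM. *Csf1r* was above every other marker in all libraries. From *F13a1* down to *Cd163*, the ranges of neighbouring genes overlapped, whereas *Folr2* was below *Cd163* and above *Lyve1* with no overlap. Together, the 10 markers made up 0.156% and 0.212% of reads in the AAV-CTRL libraries and 0.140% and 0.169% in the AAV-mVEGF-C libraries, here and below with library 1 before library 2.

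**Figure D1:**
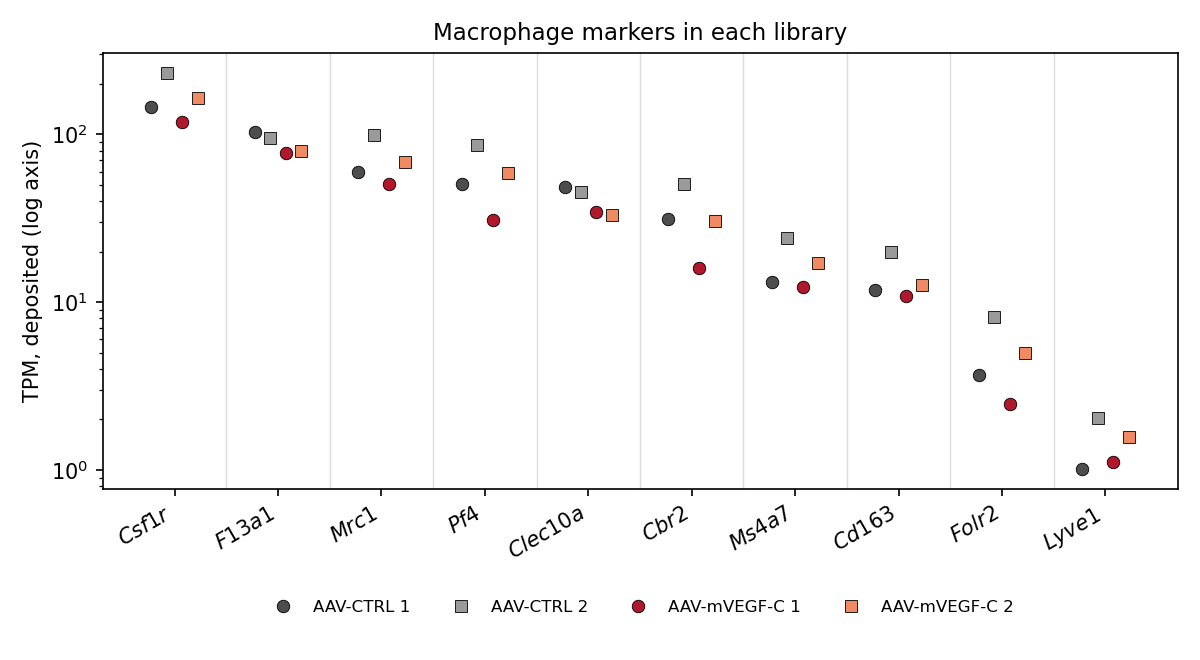
Level of each of the 10 markers in each library, in TPM as deposited, on a log axis, with circles for libraries numbered 1 and squares for those numbered 2, grey for AAV-CTRL and red or orange for AAV-mVEGF-C. For 8 markers the square lies above the circle of the same group, and *F13a1*, *Clec10a*, and, on this scale, *Cbr2* have both AAV-mVEGF-C libraries below both AAV-CTRL libraries, as did 28.5% of all tested genes in TPM.

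*Csf1r* encodes the receptor for the growth factors CSF1 and IL-34, on which macrophages depend. Its level was 558 and 754 CPM (counts scaled to library size with TMM factors, used here to compare libraries for the same gene) in the AAV-CTRL libraries and 481 and 647 CPM in the AAV-mVEGF-C libraries. AAV-CTRL 2 was highest and AAV-mVEGF-C 1 lowest, and the groups overlapped. The log2 fold change was -0.22 (SE 0.23, 95% interval -0.78 to 0.35). The ligand gene *Csf1* was measured at 30.4, 31.0, 23.1, and 30.4 CPM (the AAV-CTRL libraries first), with a log2 fold change of -0.20 and an interval of -0.69 to 0.29. *Il34*, the gene of the other ligand, had 0, 29, 4, and 14 reads in the same order, too few to compare. *Csf1r* overlaps *Hmgxb3*, which lies on the opposite strand and had 1241 to 1386 reads, against 18777 to 25918 reads for *Csf1r*. How strand was used in the counting is not given in the sources used here.

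Among the 17 genes fixed as the surroundings of CSF1R signaling (its ligands, related myeloid growth factor receptors, and downstream factors), 8 were lower and 9 higher, with a median log2 fold change of 0.00. *Spi1*, which encodes PU.1, was at 111 and 97.2 TPM in AAV-CTRL and 98.4 and 110 TPM in AAV-mVEGF-C, so that the groups overlapped. *Irf8*, a factor of monocyte and macrophage development, was at 62.9 and 94.8 TPM against 59.3 and 73.8 TPM. Only *Csf3r*, the receptor of the neutrophil growth factor G-CSF, had an unadjusted p under 0.05 in this list by edgeR, with a log2 fold change of 0.50 (95% interval 0.04 to 0.96). It is named because it was the only one, after its values had been seen.

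The scavenger and lectin receptors come next. *Mrc1* (chr2:14229392-14332057, plus strand) encodes the mannose receptor CD206, which binds and takes up glycans. Its levels were 429 and 639 CPM in the AAV-CTRL libraries and 371 and 502 CPM in AAV-mVEGF-C. The groups overlapped, AAV-CTRL 2 being highest and AAV-mVEGF-C 1 lowest, and the log2 fold change was -0.29 (SE 0.26, 95% interval -0.92 to 0.34). *Cd163* (chr6:124304656-124330527, plus strand) encodes the scavenger receptor for complexes of hemoglobin and haptoglobin. Its levels were 66.3 and 105 CPM in AAV-CTRL and 65.6 and 77.1 CPM in AAV-mVEGF-C. The log2 fold change was -0.26 (SE 0.25, 95% interval -0.87 to 0.34). The libraries numbered 1 were nearly level for this gene, with a difference of -0.01 on the log2 scale, whereas those numbered 2 differed by -0.45.

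*Lyve1* (chr7:110850607-110863239, minus strand) encodes a hyaluronan receptor of macrophages and of lymphatic endothelium. It was the marker with the lowest level per length, and it had 3.91 and 7.12 CPM in AAV-CTRL and 4.51 and 5.33 CPM in AAV-mVEGF-C. Both AAV-mVEGF-C libraries lay between the AAV-CTRL libraries, and the log2 fold change was -0.16 (SE 0.40, 95% interval -1.14 to 0.81). Of the lymphatic endothelial genes measured beside it, *Prox1*, the master transcription factor of that lineage, had 15 and 13 reads in AAV-CTRL and 39 and 26 reads in AAV-mVEGF-C, at most 0.16 TPM. *Flt4*, which encodes VEGFR-3, was at 0.09 to 0.23 TPM, and *Pdpn*, which encodes podoplanin and is also expressed by fibroblasts, was at 0.45 to 2.58 TPM. The list of 10 lymphatic endothelial markers, which excludes *Lyve1*, had 9 genes tested, of which 5 were lower and 4 higher. Its summed level was 129 and 149 TPM in AAV-CTRL and 127 and 131 TPM in AAV-mVEGF-C, with *Nts* at 0 in some libraries, and it was carried by *Thy1* and *Fgl2*, which leukocytes also express. Lymphatic endothelial cells do not carry CD45, the marker of the sort, and the share of *Lyve1* reads that came from them was not tested.

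*Clec10a* (chr11:70156197-70170834, plus strand) encodes a galactose-type lectin of macrophages and dendritic cells. It was at 77.0 and 73.8 CPM in the AAV-CTRL libraries and 61.5 and 64.1 CPM in AAV-mVEGF-C, so that both AAV-mVEGF-C libraries were below both AAV-CTRL libraries. In CPM this held for 2 of the 10 markers, *Clec10a* and *F13a1*, and for 15.2% of all tested genes. The log2 fold change of *Clec10a* was -0.26 (SE 0.15, 95% interval -0.63 to 0.10), its unadjusted p of 0.125 being the smallest of the 10 and its adjusted p 0.999 by edgeR. *Mgl2*, the close paralog of *Clec10a* on the same chromosome, was at 207 and 195 CPM against 169 and 188 CPM, with no overlap and a log2 fold change of -0.17. Reads that match both genes could be divided between them by the authors' counting, so their separate values are uncertain.

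*Folr2* (chr7:101839988-101857194, minus strand) encodes a folate receptor found on resident macrophages. It was at 4.79 and 8.93 CPM in the AAV-CTRL libraries and 3.53 and 6.59 CPM in AAV-mVEGF-C, and the groups overlapped. It had the largest fitted difference of the 10, a log2 fold change of -0.44, but also the widest interval, from -1.58 to 0.70. An antisense gene and a pseudogene overlap *Folr2*, with 38 to 72 reads for *Gm10602* and 0 to 3 reads for *Gm45319* against 138 to 307 reads for *Folr2*.

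*Pf4* (chr5:90772435-90773383, plus strand) and *F13a1* (chr13:36867178-37050244, minus strand) encode secreted proteins known from platelets and also made by macrophages, a chemokine (CXCL4) and the A subunit of the clotting factor XIII, which crosslinks fibrin. *Pf4* was at 27.9 and 46.0 CPM in the AAV-CTRL libraries and 19.2 and 35.9 CPM in AAV-mVEGF-C. The groups overlapped, and the log2 fold change was -0.42 (SE 0.37, 95% interval -1.32 to 0.47). *F13a1* was at 407 and 344 CPM in the AAV-CTRL libraries and 320 and 339 CPM in AAV-mVEGF-C. All 4 libraries lay within 1.27-fold, with no overlap between the groups and a log2 fold change of -0.19 (SE 0.17, 95% interval -0.60 to 0.22). The antisense genes *Gm49144* and *Gm30489*, which overlap *F13a1*, had at most 4 reads in a library.

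Platelet genes measured beside these markers were low. *Ppbp*, a platelet chemokine gene, was at 0.96 and 0.43 TPM in AAV-CTRL and 0.59 and 0.23 TPM in AAV-mVEGF-C. These levels rest on 51 and 16 reads and on 29 and 9 reads. The level of *Pf4* per length was 52.5 to 256 times that of *Ppbp*, a ratio made uncertain by the few *Ppbp* reads. *Gp9*, a subunit of the platelet receptor for von Willebrand factor, was at 0.07 to 0.39 TPM, and *Itga2b*, an integrin of platelets and megakaryocytes, at 2.65 to 3.56 TPM. Of 12 platelet and megakaryocyte markers, 9 were tested, 7 of them lower and 2 higher. Their summed level was 15.5 to 19.7 TPM, with *Gp6* among those at 0 in some libraries. The share of *Pf4* and *F13a1* reads that came from platelets was not tested.

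*Cbr2* (chr11:120729489-120732114, minus strand) encodes a carbonyl reductase, and *Ms4a7* (chr19:11321039-11336146, minus strand) a membrane protein of the MS4A family. *Cbr2* was at 28.3 and 46.9 CPM in the AAV-CTRL libraries and 19.0 and 37.1 CPM in AAV-mVEGF-C, with a log2 fold change of -0.42 (SE 0.38, 95% interval -1.35 to 0.50). *Ms4a7* was at 17.9 and 32.9 CPM against 18.1 and 23.5 CPM, with a log2 fold change of -0.29 (SE 0.32, 95% interval -1.08 to 0.50). The groups overlapped for both genes, and for *Ms4a7* both AAV-mVEGF-C libraries lay between the AAV-CTRL libraries. Of the other MS4A genes measured beside it, *Ms4a4a* had a log2 fold change of 0.50 (95% interval -0.22 to 1.21), *Ms4a6c* -0.09, and *Ms4a6d* -0.06. All of their intervals included 0.

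**Figure D2:**
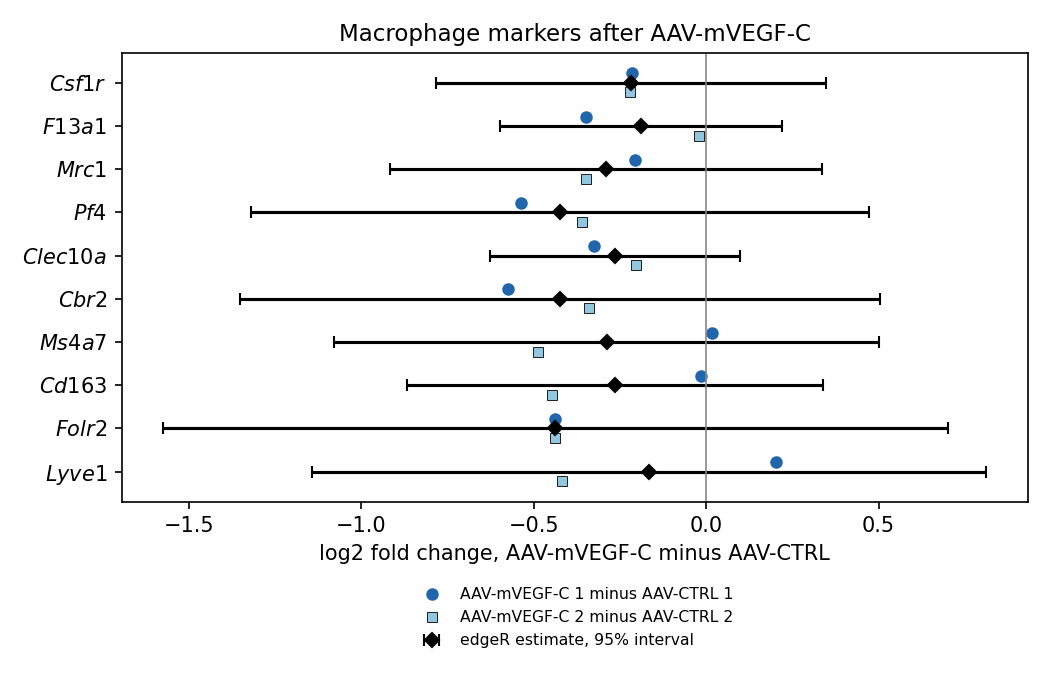
Log2 fold change of each marker, AAV-mVEGF-C minus AAV-CTRL, as the edgeR estimate with its 95% interval (black) and as the difference within each number (circles for libraries numbered 1, squares for those numbered 2). Every interval includes 0, and the within-number differences lie below 0 for all markers but *Lyve1* and *Ms4a7*, whose libraries numbered 1 differ by 0.20 and 0.02.

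The libraries numbered 2 held more of most markers than the libraries numbered 1, in both groups. This was so for 8 of the 10 markers, all but *F13a1* and *Clec10a*, and for 27.2% of all tested genes. The step from library 1 to library 2 was 0.43 to 0.90 on the log2 scale in AAV-CTRL and 0.23 to 0.96 in AAV-mVEGF-C over these 8 markers, against fitted differences between the treatments of -0.44 to -0.16. AAV-CTRL 2 was the highest library for the same 8 markers, and for 24.8% of all tested genes. Within each number, 8 of the 10 markers were lower after AAV-mVEGF-C in both, the exceptions being *Lyve1* and *Ms4a7*, and 23.5% of all tested genes were lower in both. The numbers are those of the sample titles, and the column labels of the table number the AAV-CTRL libraries differently (C2 and C3, beside V1 and V2-10 for AAV-mVEGF-C), so which pools were handled together is not settled.

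The complement genes *C1qa*, *C1qb*, and *C1qc*, expressed by most resident macrophages, were also higher in the libraries numbered 2, with summed levels of 609 and 912 CPM in AAV-CTRL and 486 and 824 CPM in AAV-mVEGF-C. This scale was chosen after the values had been seen. Relative to the C1q genes, the spread over the 4 libraries went from 1.57- to 2.53-fold to 1.25- to 1.44-fold for the 8 markers. A gene with the same step between libraries as its divisor must lose spread, and of all genes with reads in every library 15% did so. *Mrc1*, for example, had 70.4 and 70.1 reads per 100 C1q reads in AAV-CTRL and 76.3 and 60.9 in AAV-mVEGF-C. *Csf1r* had 91.7 and 82.6 reads per 100 C1q reads against 98.8 and 78.5. On this scale the median log2 fold change of the 10 markers was -0.01, with 5 lower and 5 higher, and that of all tested genes was 0.26. The scale moved all genes alike, so that the 10 markers stayed 0.27 below all genes in the median and each stayed below the median of all genes.

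*F13a1* and *Clec10a*, which had no such step in CPM, had a wider spread on this scale, growing from 1.27- to 1.77-fold and from 1.25- to 1.63-fold. *F13a1* had 66.9 and 37.7 reads per 100 C1q reads in AAV-CTRL and 65.7 and 41.1 in AAV-mVEGF-C. *Clec10a* had 12.6 and 8.09 against 12.6 and 7.77. Both libraries numbered 1 were thus above both libraries numbered 2, as for *Mrc1* and *Csf1r*, which makes 4 of the 10 markers. The same held for 61.7% of all tested genes, since the C1q genes themselves were higher in the libraries numbered 2. *Mgl2* had the same order, with 34.0 and 21.3 reads per 100 C1q reads in AAV-CTRL and 34.8 and 22.8 in AAV-mVEGF-C. So did *Ly6c2*, a marker of classical monocytes, with 27.8 and 10.3 against 27.0 and 16.6, and *Ptprc*, with 189 and 104 against 223 and 126. Among the most abundant monocyte markers, *Chil3* and *Plac8* also had this order. *Nr4a1* did not, with 187 and 159 against 277 and 210. The ratio of *F13a1* to *Mrc1* in TPM was 1.72 and 1.53 in the libraries numbered 1 and 0.958 and 1.16 in those numbered 2.

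**Figure D3:**
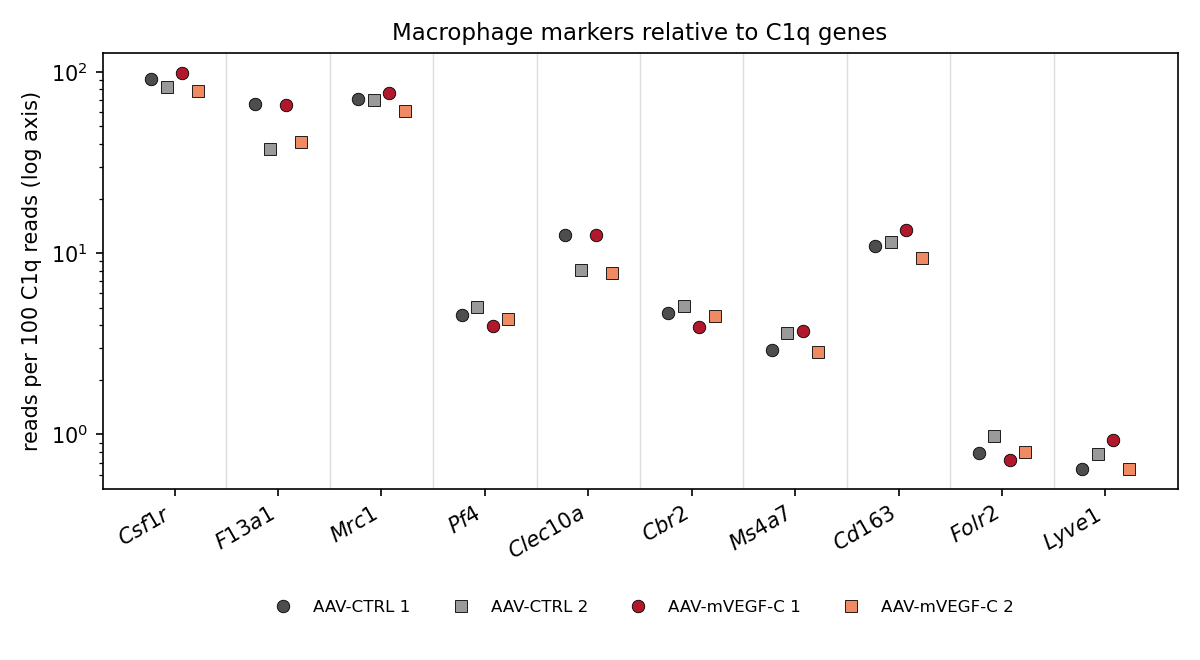
Reads of each marker per 100 reads of *C1qa*, *C1qb*, and *C1qc* together in each library, on a log axis, with symbols for the libraries as in the plot of TPM. *F13a1* and *Clec10a* have both circles (libraries numbered 1) above both squares (libraries numbered 2), over 1.77- and 1.63-fold, and *Csf1r* and *Mrc1* do so over 1.26- and 1.25-fold, whereas the libraries of the other 6 markers lie within 1.44-fold.

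Other genes known from border-associated macrophages had a like direction. Of 36 listed, 35 were tested, 30 of which were lower and 5 higher, with a median log2 fold change of -0.26, and 0 had an adjusted p under 0.05. Their most abundant members included *Apoe*, which carries lipids, at 1819 and 2973 TPM in AAV-CTRL and 1267 and 1876 TPM in AAV-mVEGF-C, and *Selenop*, a selenium transport protein, at 181 and 340 TPM against 150 and 229 TPM. *Dab2*, an adaptor of endocytosis, was at 59.7 and 94.9 TPM against 58.5 and 74.9 TPM. AAV-CTRL 2 was highest for all 3. The one gene of the list with an unadjusted p under 0.05 was *Fcna*, a ficolin gene named after its values were seen, with a log2 fold change of -1.53 (95% interval -2.95 to -0.11). *Vsig4* and *Ednrb* were at 0 in some libraries.

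Genes shared by most macrophages and by many monocytes, and so not particular to macrophages in these libraries, had a median nearer to 0. Of 20, 14 were lower and 6 higher, with a median log2 fold change of -0.13. Of the 4 most abundant, *Ctss*, which encodes the protease cathepsin S, had a log2 fold change of -0.07 (95% interval -0.46 to 0.32) and *C1qb* -0.21 (-0.89 to 0.48). *Lyz2*, which encodes lysozyme, had a log2 fold change of 0.03 (95% interval -0.42 to 0.47), and *Tyrobp*, a signaling adaptor, 0.20 (-0.25 to 0.66). Of 7 MHC class II genes, high in the other dural macrophage subset and in dendritic cells, 3 were lower and 4 higher, with a range of -0.08 to 0.09. *Cd74*, the invariant chain, was at 2831 and 4028 TPM in AAV-CTRL and 2817 and 3610 TPM in AAV-mVEGF-C. In both groups, 5 of the 7 genes were higher in the library numbered 2.

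Among the neighbouring myeloid cell types, 6 of 12 monocyte markers were lower and 6 higher, with a median of -0.02, and all 12 dendritic cell markers were higher, with a median of 0.24 and 0 with an unadjusted p under 0.05. *Cd209a*, a lectin of dendritic cells, was at 57.5 and 57.8 TPM in AAV-CTRL and 62.0 and 64.0 TPM in AAV-mVEGF-C. Of 8 microglia markers, 6 were lower and 2 higher, with a median of -0.29, and *Slc2a5* was at 0 in one library. *Tmem119* and *P2ry12*, which are more particular to microglia and are named outside the rule, were at 2.61 to 5.17 TPM and 1.48 to 4.39 TPM.

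The order of libraries in the summed markers (AAV-CTRL 2, AAV-mVEGF-C 2, AAV-CTRL 1, and AAV-mVEGF-C 1, from high to low) was also that of the other border-associated macrophage, pan-macrophage, MHC class II, microglia, lymphatic endothelial, and fibroblast sums. Fibroblasts do not carry CD45, the marker of the sort. All 10 dural fibroblast markers were lower after AAV-mVEGF-C, with a median log2 fold change of -0.75. By edgeR, 4 of the 10 had an unadjusted p under 0.05 (2.64% of all tested genes), but 0 an adjusted one. The 4 were *Col1a1*, *Col1a2*, *Dcn*, and *Pdgfra*, the last 2 named after their values were seen. The summed level of the fibroblast list was 280 and 487 TPM in AAV-CTRL and 199 and 286 TPM in AAV-mVEGF-C, with no gene at 0. The sums of the 10 markers were 468 and 665 TPM and 355 and 471 TPM. The fibroblast sum was carried most by *Mgp* and *Gsn*, whose log2 fold changes of -0.43 and -0.14 were smaller than the list's median. *Col1a1*, a collagen gene, was at 31.6 and 52.8 TPM against 16.2 and 21.9 TPM. B cell markers were also lower in all 10 cases, with a median of -0.56 and summed levels of 151 and 347 TPM against 128 and 147 TPM. Of 8 mast cell markers, 7 were lower, with a median of -0.59. By edgeR, 5 had an unadjusted p under 0.05, beside the same 2.64% of all tested genes. The summed mast cell level was 1538 and 1150 TPM against 834 and 895 TPM. Of 10 blood endothelial markers, 9 were lower, with a median of -0.50, and of 10 T cell markers, 9 were higher, with a median of 0.23. An unadjusted p under 0.05 by edgeR was reached by 2 B cell markers and 1 blood endothelial marker, all lower. It was reached by 4 T cell markers, 3 higher and 1 lower. None of these lists had a gene with an adjusted p under 0.05 by edgeR. The part of these other cells in the differences between libraries was not tested.

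**Figure D4:**
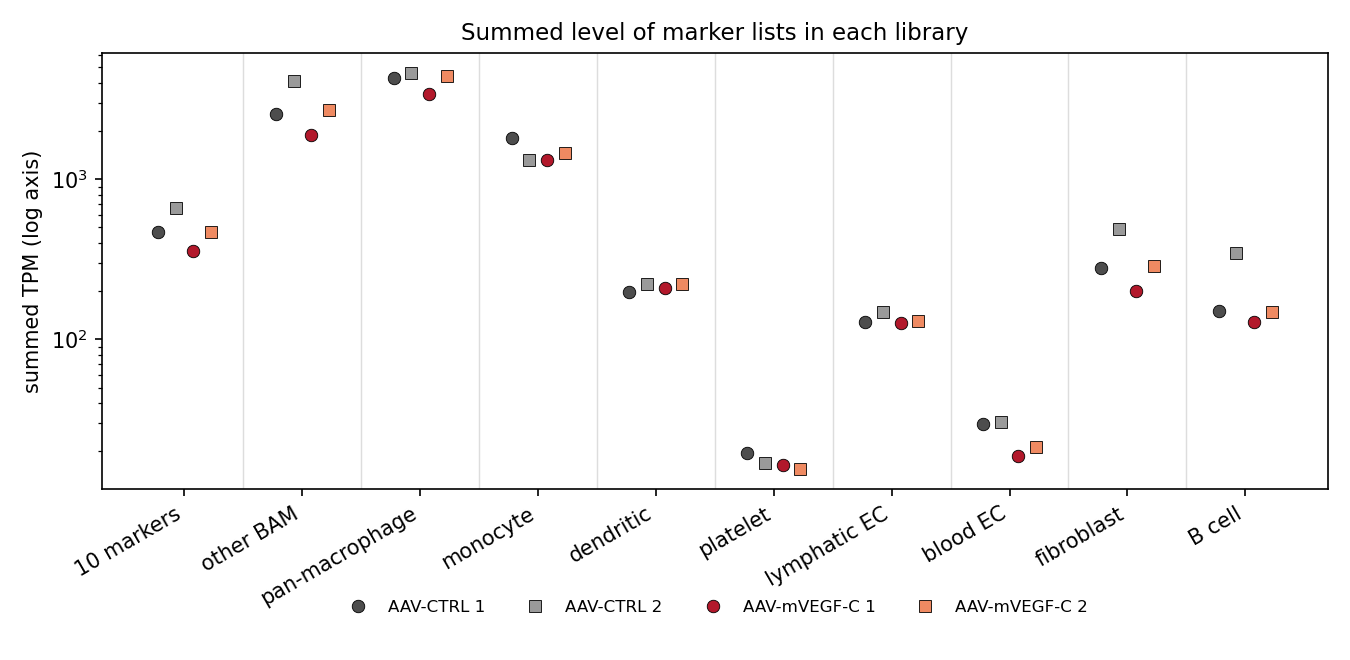
Summed TPM of the 10 markers and of 9 other marker lists in each library, on a log axis (BAM, border-associated macrophage; EC, endothelial cell), with symbols for the libraries as in the plot of single markers. The 10 markers, the other BAM list, and the fibroblast list have AAV-CTRL 2 highest and AAV-mVEGF-C 1 lowest, as do the pan-macrophage, both endothelial, and B cell lists, whereas the dendritic cell sums lie within 198 to 222 TPM.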

How the data were processed

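RNA of sorted dural CD45+ cells was sequenced from strand-preserving total RNA libraries prepared for very small inputs. The authors deposited estimated counts per gene, which need not be whole (8.18% of values were not) and were not normalized, and the authors also deposited TPM values of the same libraries. The submitters' processing notes name FastQC, Trimmomatic, DRAGEN, Picard, and mm10; their roles and versions, and the strand setting, are not given in the sources used here. Libraries held 32520649 to 46409685 reads.

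Estimated counts were rounded, and all 4 libraries were fitted with edgeR 4.0.16 in R 4.3.3 (TMM, filterByExpr, glmQLFit, and glmQLFTest, no covariate, Benjamini-Hochberg threshold 0.05 over 19806 genes). SE is the log2 fold change divided by the square root of F. With 2 pools against 2, an exact permutation test cannot go below p = 0.333, and the p-values measure the spread between these pools only. The fits were tested on simulated data. Alternatives were DESeq2 1.42.0, limma 3.58.1 with voom, limma on log2(TPM + 1) and log2(TPM + 0.1), RLE factors, library sizes without immunoglobulin genes, no filter, at least 10 reads in every library, a replicate block, scaling to 20 macrophage genes, and each library left out. A crossed block and scaling to the C1q genes were added after seeing the data.

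The 10 markers and all lists were chosen with earlier results of these data known. Named genes are the markers, up to 4 genes of highest mean TPM per list, and a few relatives fixed beside the markers (such as *Mgl2* and *Prox1*). Other genes were named after their values were seen, mostly for a level of 0 or a low unadjusted p. Coordinates and promoters are those of GRCm38, and gene extents are from GENCODE M21. Values of some single genes of the marker lists are not reported here.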

Additional observations from a re-analysis of the deposited data

How the results depend on the processing

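The count of all genes passing the adjusted p threshold was 0 in the main analysis and under voom, RLE factors, library sizes without immunoglobulin genes, the minimum of 10 reads, and both TPM settings. It was 77 with DESeq2, 268 without a filter, 34 when scaled to the macrophage genes, and 2 to 2058 when one library was left out. The number was 11 with a replicate block. Same-numbered libraries did not deviate together over all tested genes (r = -0.13 across 19806 genes), although 8 of the 10 markers were higher in number 2 in both groups. The main fit had no covariate and did not take the numbers as pairs. A crossed block gave 54 calls. Scaling to the C1q genes gave 103. In none of the 16 alternatives did any of the 10 markers have an adjusted p under 0.05, the smallest being 0.111 (*Ms4a7*, without AAV-CTRL 1). Their median log2 fold change was -0.57 to 0.03 when one library was left out, -0.25 with the replicate block, -0.39 from TPM, where the median of all genes was also lower (-0.13 with a pseudocount of 1 and -0.14 with 0.1), and -0.01 on the C1q scale. DESeq2, the fit without a filter, and the C1q scale put the median of all genes at 0.25, 0.22, and 0.26. Without AAV-CTRL 2, 4 markers were lower and 6 turned higher. With one library left out in turn, their values ran from -0.56 to 0.038 for *Mrc1*, -0.55 to 0.34 for *Lyve1*, -0.57 to 0.12 for *Cd163*, -0.945 to 0.090 for *Folr2*, -0.44 to 0.026 for *Csf1r*, and -0.68 to 0.23 for *Ms4a7*. The values for *Pf4* ran from -0.93 to -0.0069, for *Cbr2* from -0.97 to -0.0025, for *F13a1* from -0.30 to -0.079, and for *Clec10a* from -0.29 to -0.23. The C1q scale raised all genes alike, and each marker stayed below the median of all genes, although 5 passed above 0, with 0.14 (*Lyve1*), 0.027 (*Cd163*), 0.031 (*F13a1*), 0.025 (*Csf1r*), and 0.0048 (*Ms4a7*). The other 149 of 160 values for single markers kept their direction. Markers with an unadjusted p under 0.05 numbered 6 without AAV-CTRL 1 (7.75% of all genes), 2 without AAV-mVEGF-C 2 (2.29%), 2 without a filter (3.26%), 1 in each TPM setting (5.47% and 5.16%), and 0 in the other settings. Where a library was left out, 1 group had a lone library that was assumed to vary like the pair of the other group, so these calls and p-values rest on the spread of that pair alone. The low reads of *Folr2* and *Lyve1*, 138 to 307 and 169 to 245 in a library, add counting error to theirs.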
